A study of Homo sapiens with 2 samples.

Results

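The genes described here are 34 direct transcriptional targets of the tumour suppressor p53, and 32 of them were measured by 79 probe sets among 17689 genes in all. A gene entered with every probe set that the platform annotation gives to it alone. BTG2 and FDXR, also among the 34, were not analysed here. The cells were LNCaP, a human prostate carcinoma line that responds to androgen. They received lentiviral particles with a KDM4A-specific hairpin (shKDM4A) or particles with the empty vector pLKO.1 (control), and RNA was taken 3 days later. Both cultures thus carried a lentiviral vector, and 1 hairpin stands for the knockdown. RNA was hybridised to Affymetrix Human Genome U133 Plus 2.0 arrays, 1 array for each culture. With no replicate in either group, precision is limited by this number of arrays, and no difference could be tested.

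The p53 protein is a transcription factor that is held at a low level by MDM2, which marks it for destruction, and that accumulates after DNA damage and other stress. It binds a DNA element made of a pair of half-sites and switches on genes that halt the cell cycle, repair DNA, alter metabolism, open death pathways and restrain p53 itself. KDM4A removes methyl groups from lysines of histone H3.

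Each value is a log2 signal that the authors normalised with RMA and that is centred per probe set across both arrays, so the shKDM4A value and the control value of a probe set are mirror images. The difference, shKDM4A minus control, is given on the log2 scale, and a difference of 1 is a 2-fold higher signal. Base 2 is the usual scale of RMA and is not given in the sources used here, so every fold rests on it. Since centring removed the signal level, a difference near 0 can also come from a gene that is not expressed, and the identity of the cells could not be checked from the level of luminal prostate markers. In bulk RNA, a change in the share of cells that express a gene and a change in the amount per cell cannot be told apart. Over all genes the differences had a median of 0.020 and quartiles of -0.14 and 0.18, and the pooled SD between probe sets of 1 gene was 0.33. KDM4A itself, the target of the hairpin, read -0.59 in shKDM4A cells and 0.59 in control cells, a 2.26-fold lower level (log2 difference -1.18 ± 0.40, SD over 2 probe sets). Its paralogs differed by -0.42 ± 0.44 (KDM4C, SD over 3 probe sets), -0.026 ± 0.36 (KDM4B, 8 probe sets) and 0.15 ± 0.12 (KDM4D, 2 probe sets). The KDM4C probe sets ran from -0.92 to -0.098. Of 7 measured luminal markers, 6 lay above 0, against 53.7% of all genes, with a median of 0.11. The members farthest from 0 were TMPRSS2 (-0.76 ± 0.16, 4 probe sets), FOLH1 (0.48) and KRT8 (0.41), the last 2 on 1 probe set each. Of 6 stromal and blood markers, 4 lay above 0 with a median of 0.14. COL1A1 (0.73 ± 0.76, 4 probe sets), COL3A1 (0.63 ± 0.68, 3 probe sets) and VIM (-0.35, 1 probe set) were farthest from 0. The part of these markers in the results below was not tested.

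The p53 half-site is a 10-base element that reads the same on both strands, and windows from 250 bases before to 50 bases after each RefSeq transcription start (GRCh38.p14) were searched for it. Windows were at hand for 25 of the 34 genes, 38 windows in all. The other 9 were TNFRSF10A, TNFRSF10B, TNFRSF10C, TNFRSF10D, TRIM22, GADD45A, RRM2B, TP53INP1 and PHLDA3. The half-site was found in 7 of the 25 genes (28.0%), against 8.06% of all 27305 genes in the table. It was found in 18.4% of the windows of p53 targets, against 6.63% of all 35116 windows. The genes were listed as direct targets of p53, so a higher share was likely beforehand and says nothing on these arrays. The 7 stretches are shown because the half-site is the letter pattern that p53 is known to bind, and capitals mark each match.
FAS: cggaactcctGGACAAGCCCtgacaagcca
DDB2: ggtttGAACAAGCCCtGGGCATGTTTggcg
SESN1: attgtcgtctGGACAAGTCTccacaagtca
RPS27L: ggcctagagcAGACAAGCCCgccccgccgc
AEN: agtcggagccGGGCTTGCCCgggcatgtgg
PLK2: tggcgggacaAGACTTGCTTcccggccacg
FDXR: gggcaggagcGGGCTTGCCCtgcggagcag

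The FAS stretch lies at chr10:88991299-88991328 on the + strand, with the half-site beginning 122 bases before 1 of 3 annotated starts. The DDB2 stretch, at chr11:47214974-47215003 on the + strand, was the only one with a pair of half-sites at most 13 bases apart; they begin at bases 6 and 17 of the transcript, and only 10 of 35116 windows held such a pair. SESN1 has its match at chr6:109009018-109009047 on the - strand, 49 bases before 1 of 3 starts. The other stretches lie at chr15:63157517-63157546 on the - strand (RPS27L), chr15:88621296-88621325 on the + strand (AEN), chr5:58460199-58460228 on the - strand (PLK2) and chr17:74872986-74873015 on the - strand (FDXR). A match is a pattern of letters and not a shown binding site, and elements outside these windows were not searched. The 6 measured genes with a match had a median difference of 0.51, and they ran from -0.28 (PLK2) to 1.89 (FAS). The 17 measured genes with windows and no match had a median of 0.22 and included CDKN1A, TP53I3 and TIGAR, each more than 2-fold higher in shKDM4A cells. Among all 1097 measured genes with a half-site in such a window the median was 0.026.

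Most p53 targets read higher in shKDM4A cells than in control cells. Of 32 measured, 27 (84.4%) lay above 0, against 53.7% of all genes, and the median difference was 0.32, against 0.020 over all genes. At least 2-fold higher were 5 members (15.6%), against 1.16% of all genes, and 0 were at least 2-fold lower, against 1.44%. The 5 were CDKN1A, FAS, TRIM22, TP53I3 and TIGAR. Another 5, DDB2, RRM2B, PPM1D, ZMAT3 and PHLDA3, lay between 1.5-fold and 2-fold higher, which brought the number at least 1.5-fold higher to 10 (31.2%), against 4.3% of all genes. At 1.5-fold lower there were 0, against 4.38%. The other 22 members lay within 1.5-fold of the control. The members were chosen with earlier results of these data known, so their shares are no independent support. Without the 5 members past 2-fold, the remaining 27 had a median of 0.22. Of the 5 members past 2-fold, 4 rest on a single probe set, and for CDKN1A, TP53I3 and TRIM22 that probe set carries the suffix _s_at, given where probes can match more than 1 transcript. With such probe sets left out, 24 members remained and 1 of them, TIGAR, was at least 2-fold higher. The share of all genes past 2-fold under this setting was not computed.

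**Figure D1:**
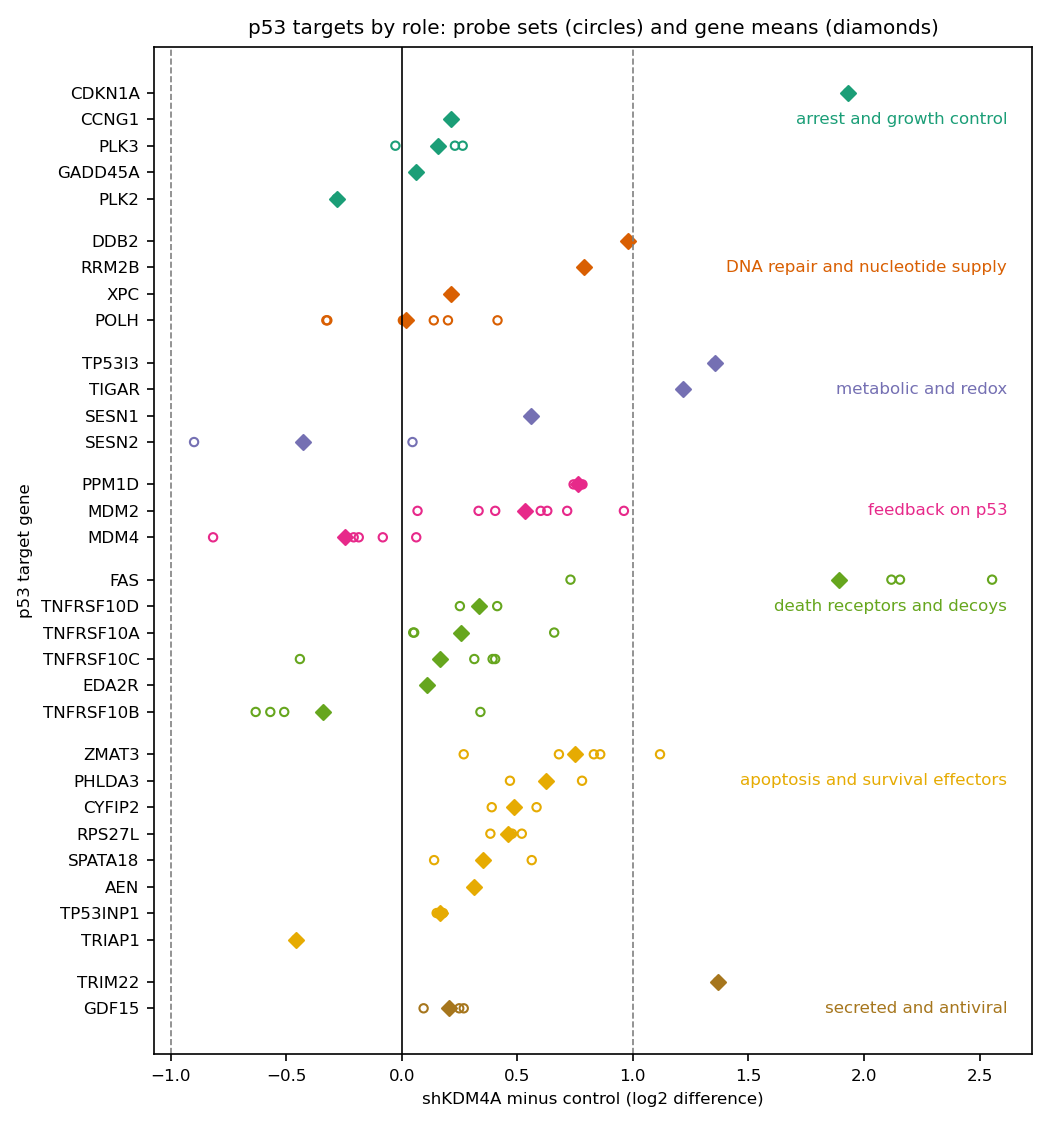
Differences between the shKDM4A and control arrays (x axis, log2) for the 32 measured p53 targets (y axis), grouped and coloured by role. Open circles are probe sets, diamonds are gene means and dashed lines mark 2-fold. CDKN1A, FAS, TRIM22, TP53I3 and TIGAR lie past the right line, no gene mean passes the left one, and 5 gene means lie below 0.

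Probe sets gave a second view of the same arrays. Of the 79 probe sets, 64 (81.0%) lay above 0, against 53.3% of the 34880 probe sets with 1 gene. In 12 of the 18 members with several probe sets (66.7%), each probe set lay above 0, and in no member did each lie below it. Agreement on either side of 0 was seen in 50.4% of all genes with several probe sets. The 12 were MDM2, PPM1D, FAS, TNFRSF10A, TNFRSF10D, ZMAT3, TP53INP1, PHLDA3, RPS27L, SPATA18, CYFIP2 and GDF15. Probe sets of PLK3, POLH, SESN2, MDM4, TNFRSF10B and TNFRSF10C lay on both sides. Probe sets of a gene share an array and an RNA sample, so their agreement says nothing on the spread between cultures.

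Among the genes of arrest and growth control, 1 of 5 measured stood far from the others. CDKN1A, which encodes p21, the inhibitor of cyclin-dependent kinases, read 0.97 in shKDM4A cells and -0.97 in control cells. It was 3.81-fold higher (difference 1.93, 1 probe set) and ranked 21st from the top among 17689 genes. The other 4 stayed within 1.5-fold, with a median of 0.11. CCNG1, a cyclin that brings a phosphatase to MDM2, differed by 0.22, and GADD45A, a growth arrest and repair protein induced by DNA damage, by 0.060. The polo-like kinases of stress signalling lay on different sides of 0, with PLK3 at 0.16 ± 0.16 (SD over 3 probe sets, from -0.028 to 0.26) and PLK2 at -0.28 on 1 probe set. CDKN1A thus stood alone in its role.

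DNA repair and nucleotide supply genes all lay above 0, against 53.7% of all genes, with a median of 0.50 over 4 genes. None reached 2-fold. DDB2, which recognises ultraviolet lesions in nucleotide excision repair, read 0.49 in shKDM4A cells and -0.49 in control cells, 1.97-fold higher (difference 0.98, 1 probe set) and just short of the size rule. RRM2B, the p53-inducible subunit of ribonucleotide reductase, read 0.39 in shKDM4A cells and -0.39 in control cells, which is 1.73-fold higher (difference 0.79, 1 probe set). XPC, the damage sensor that works with DDB2, differed by only 0.21 on 1 probe set. POLH, the polymerase that copies past ultraviolet lesions, lay at 0.018 ± 0.30 (SD over 6 probe sets), and its probe sets ran from -0.33 to 0.41, so it has no settled direction. DDB2 and RRM2B thus lay apart from XPC and POLH, which stayed within 1.5-fold.

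The metabolic and redox targets had a median of 0.89 over 4 genes, the highest among the arrest, repair, metabolic, feedback and death receptor roles, and the members again lay apart. TP53I3, a quinone oxidoreductase linked to oxidative stress, read 0.68 in shKDM4A cells and -0.68 in control cells and was 2.56-fold higher (difference 1.35, 1 probe set). TIGAR, a bisphosphatase that lowers glycolytic flux, read 0.61 in shKDM4A cells and -0.61 in control cells and was 2.32-fold higher (difference 1.22, 1 probe set). They stood at the 99.5th percentile (TP53I3) and the 99.3rd percentile (TIGAR) of all genes. The sestrins, which restrain the growth kinase mTORC1, differed from each other. SESN1 was 1.47-fold higher (0.56, 1 probe set), while SESN2 lay at -0.43 ± 0.67 over 2 probe sets that read -0.90 and 0.046. SESN2 has therefore no settled direction on these arrays, and as the only gene of this role with more than 1 probe set it turns the median to -0.43 when single probe sets are left out.

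The feedback genes also divided. MDM2, the ubiquitin ligase that degrades p53, read 0.27 in shKDM4A cells and -0.27 in control cells, 1.45-fold higher (difference 0.53 ± 0.25, SD over 9 probe sets). All 9 of its probe sets lay above 0, from 0.068 to 0.96. PPM1D, a phosphatase that reverses damage signalling to p53, read 0.38 in shKDM4A cells and -0.38 in control cells, 1.70-fold higher (0.76 ± 0.027, SD over 2 probe sets). MDM4, the relative of MDM2 that blocks p53 as a transcription factor, lay on the other side of 0 at -0.24 ± 0.30 (SD over 6 probe sets), with 5 of 6 probe sets below 0 and a range from -0.82 to 0.063. The means of MDM2 and MDM4 were 0.78 apart, and the lowest probe set of MDM2 (0.068) lay just above the highest of MDM4 (0.063).

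Of the death receptors, FAS alone lay far above 0. FAS, the receptor of FAS ligand, read 0.95 in shKDM4A cells and -0.95 in control cells, 3.71-fold higher (difference 1.89 ± 0.69, SD over 5 probe sets), and ranked 23rd among all genes. Its probe sets read 2.55, 2.16, 2.12, 1.89 and 0.73. Only the last is free of a suffix that marks probes able to match more than 1 transcript, and it is short of 2-fold. ACTA2, smooth muscle actin, overlaps FAS in the RefSeq annotation; it read 3.85 and 0.43 on 2 probe sets, and its part in the FAS value was not tested. The TRAIL receptors, which sit together on chromosome 8, stayed within 1.5-fold on their gene means. Of the pair that signals death, TNFRSF10A lay at 0.25 ± 0.35 (SD over 3 probe sets) and TNFRSF10B at -0.34 ± 0.46 (SD over 4), with 3 of its 4 probe sets below 0. Those 3 read -0.51, -0.57 and -0.63, and the remaining one read 0.34. The probe set at -0.63, the only one of TNFRSF10B without a suffix, was 1.55-fold lower. The decoys, which lack a working death domain, lay at 0.33 ± 0.11 (TNFRSF10D, 2 probe sets) and 0.17 ± 0.41 (TNFRSF10C, 4 probe sets). EDA2R, a receptor of ectodysplasin A2, differed by 0.11 on 1 probe set. Without FAS the role had a median of 0.17 over 5 genes.

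Effectors of apoptosis and survival lay above 0 in 7 of 8 cases, against 53.7% of all genes, by small amounts, with a median of 0.41. ZMAT3, an RNA-binding zinc finger protein, read 0.38 in shKDM4A cells and -0.38 in control cells, 1.68-fold higher (0.75 ± 0.31, SD over 5 probe sets, from 0.27 to 1.12). PHLDA3, an inhibitor of the kinase AKT, was 1.54-fold higher (0.62 ± 0.22, SD over 2 probe sets). These were the members of this role past 1.5-fold. CYFIP2, a partner of the fragile X protein, lay at 0.49 ± 0.14 (2 probe sets), RPS27L, a ribosomal protein relative, at 0.46 ± 0.070 (3 probe sets) and SPATA18, a factor of mitochondrial quality control, at 0.35 ± 0.30 (2 probe sets). AEN, an exonuclease of apoptotic nuclei, differed by 0.31 on 1 probe set and TP53INP1, a stress protein of autophagy and cell death, by 0.17 ± 0.020 over 2. All 6 genes of this role with 2 or more probe sets had every probe set above 0. Among all genes with several probe sets, 50.4% had them all on 1 side of 0, either above or below. TRIAP1, a small survival protein of mitochondria, was the exception and lay at -0.46 on 1 probe set, the lowest value among all 32 members.

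The remaining members were GDF15, a secreted stress cytokine, and TRIM22, an antiviral protein that interferon also induces. TRIM22 read 0.68 in shKDM4A cells and -0.68 in control cells, 2.58-fold higher (difference 1.37, 1 probe set). GDF15 lay at 0.20 ± 0.095 (SD over 3 probe sets), with all 3 above 0 and none past 0.27. No test could compare the roles. Members of the arrest, metabolic and death receptor roles lay farther from each other, from lowest to highest, than the medians of these roles did.

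**Figure D2:**
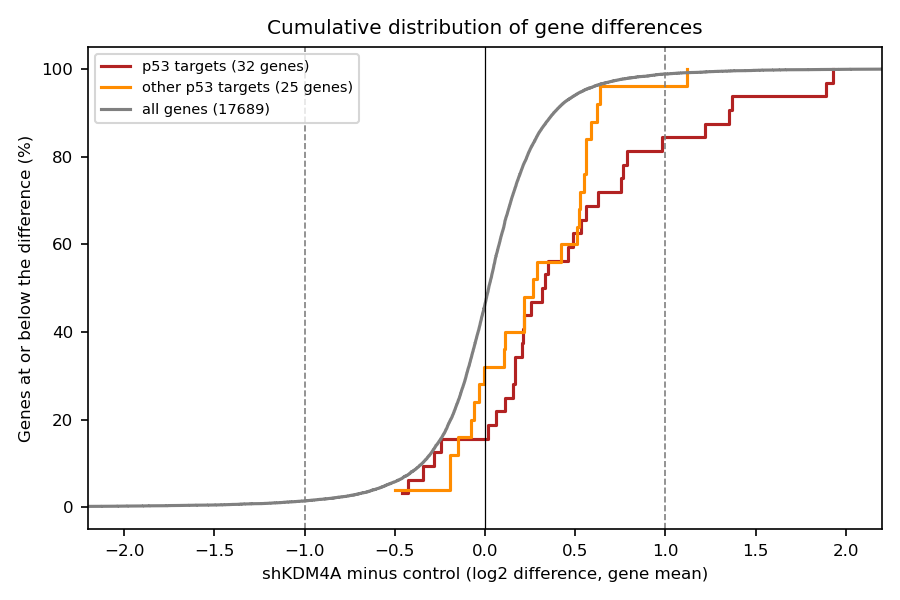
Share of genes (y axis, percent) whose difference between shKDM4A and control (x axis, log2, gene mean) is at or below a value, for the 32 measured p53 targets, 25 other p53 targets and all 17689 genes. Dashed lines mark 2-fold; both target curves lie to the right of the curve of all genes over most of the range, and 5 p53 targets extend past the right line.

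Several members share their locus with another measured gene in the RefSeq annotation, 9 such genes over 8 members. Apart from ACTA2, the gene means of these neighbours lay between -0.42 and 0.13. TP53I3 overlaps FAM228B (-0.24), SESN1 overlaps ARMC2 (-0.32) and MDM2 overlaps CPM (-0.049 ± 0.081, SD over 3 probe sets), so in each of these the target lay above 0 and the neighbour below it. CCNG1 overlaps NUDCD2 (-0.21 ± 0.087, 3 probe sets), and TP53INP1 overlaps NDUFAF6 (0.083 ± 0.065, 2 probe sets). POLH overlaps GTPBP2 (-0.42 ± 0.60), whose 3 probe sets ran from -1.10 to 0.076. TNFRSF10B overlaps RHOBTB2 (-0.22 ± 0.38) and TNFRSF10B-AS1 (0.13 ± 0.15), each on 2 probe sets. Those of RHOBTB2 read -0.49 and 0.046.

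Other targets of p53, a list of 30 of which 25 were measured, lay above 0 in 17 cases (68.0%, against 53.7% of all genes) with a median of 0.27. At least 2-fold higher was 1 (4.0%, against 1.16% of all genes), KITLG, the ligand of the receptor KIT, at 1.12 ± 1.06 over 2 probe sets that read 1.86 and 0.37. IGFBP3, which binds insulin-like growth factors (0.64 ± 0.12, 2 probe sets), FBXO22, a ubiquitin ligase subunit (0.62 ± 0.33, 4 probe sets), and BAX, a pore-forming protein of apoptosis, at 1.51-fold, were the further members past 1.5-fold. That made 4 genes past 1.5-fold (16%), against 4.3% of all genes. None was 1.5-fold lower, against 4.38% of all genes, and the lowest was SIAH1 (-0.50 ± 0.26, 3 probe sets). This list too was chosen with earlier results of these data known.

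Genes upstream of p53 lay around 0. Of 16 measured among 18 listed, 8 lay above 0, against 53.7% of all genes, and the median was -0.0073. None reached 1.5-fold, whereas 4.3% of all genes were higher and 4.38% lower by that much. The genes farthest from 0 were KAT5, an acetyltransferase of p53 (-0.31 ± 0.023, 3 probe sets), CHEK1, a checkpoint kinase (-0.30 ± 0.14, 4 probe sets), and CDKN2A, whose product ARF restrains MDM2 (0.28 ± 0.16, 3 probe sets).

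Cell cycle genes known to be lowered when p21 lets the DREAM repressor complex form were lower in shKDM4A cells. All 12 listed lay below 0, whereas 53.7% of all genes lay above it, and their median was -1.18. The gene nearest 0 lay at -0.26. Of their 29 probe sets 1 lay above 0, against 53.3% of all probe sets with 1 gene. At least 2-fold lower were 7, against 1.44% of all genes. The list was chosen with earlier results of these data known, so these counts are no independent support. CDC20, an activator of the anaphase-promoting complex, was 6.97-fold lower (-2.80), and FOXM1, a transcription factor of mitotic genes, 4.32-fold lower (-2.11), each on 1 probe set. CCNA2 (-1.46 ± 0.26) and CCNB1 (-1.42 ± 0.094), cyclins of late cell cycle phases, read alike on 2 probe sets each. BIRC5 (-1.34 ± 0.72, 4 probe sets), PLK1 (-1.22) and CCNB2 (-1.13 ± 1.81, 3 probe sets) were the others past 2-fold. The CCNB2 probe sets ran from -3.23 to -0.065, so its call rests on 1 of them. CDKN1A thus lay at the upper end and the 7 genes past 2-fold at the lower end of the same comparison. No link between them was tested.

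**Figure D3:**
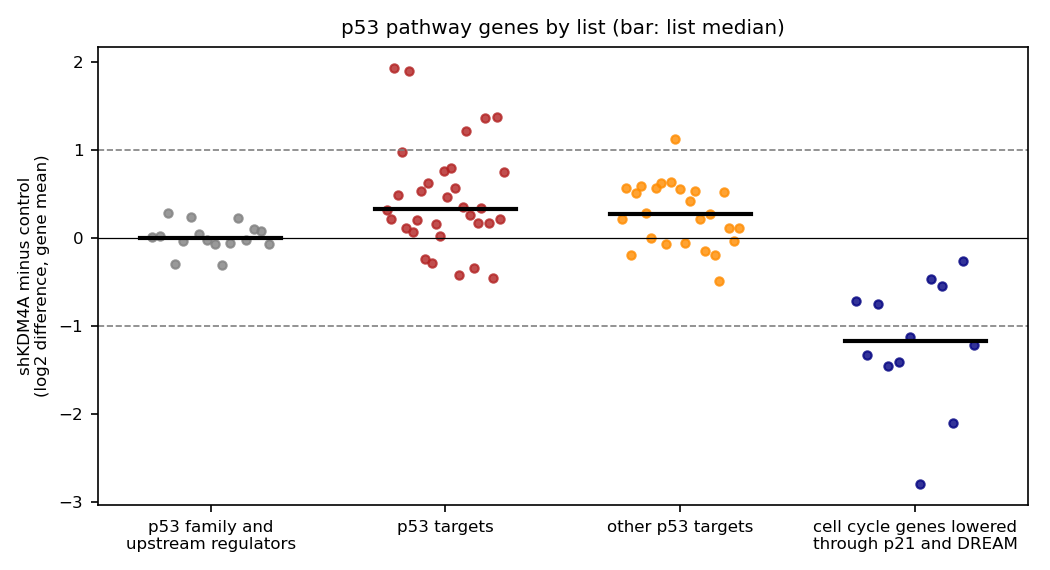
Gene differences between shKDM4A and control (y axis, log2, gene mean) in 4 lists of the p53 pathway (x axis); each point is a gene, bars are list medians and dashed lines mark 2-fold. Medians lie at -0.0073 for upstream regulators, 0.32 for p53 targets, 0.27 for other p53 targets and -1.18 for the cell cycle genes.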

How the data were processed

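RNA from shKDM4A and control LNCaP cultures was measured on 1 array each. The authors deposited values made with RMA (robust multi-array averaging), per the submitters' processing notes, which name no version. In all 44672 rows the 2 values summed to 0 within 1e-06, so each probe set is centred on the mean of both arrays and signal level, background and detection are lost. The base of the log, how rows were centred and any earlier filter were not given in the sources used here. Here the deposited values were taken as log2 because RMA works on that scale.

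The difference was the shKDM4A value minus the control value. The platform annotation gave 34880 probe sets 1 gene, 1619 several and 8131 none; 42 AFFX controls were set aside. Of the 34880, 34839 were found by Entrez identifier in a RefSeq gene table of GRCh38.p14, which changed 0 symbols. A gene's value was the mean over its probe sets, for 17689 genes. With 1 array in each group there is no test and no p-value. Genes were called by a size rule of 2-fold, with 1.5-fold as a second rule. Each SD describes how far the probe sets of 1 gene lie apart, and carries nothing on the spread between cultures.

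The members, roles and gene lists were chosen with earlier results of these data known. Named genes were all members, the KDM4 genes, in each other list the genes at least 2-fold apart and the 3 farthest from 0, and genes that overlap a member. The alternatives, with their effect in the closing section, dropped probe sets with the suffixes _x_at, _s_at or _a_at, used medians in place of means, subtracted the median difference, changed the size rule or kept genes with 2 or more probe sets. BAX and SIAH1 were named beyond this rule, after their values were seen. The planned comparison of protein sequences was not made. The steps were tested on simulated data. Computations used Python 3.11.15 with numpy 2.4.6 and pandas 2.3.3.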

Additional observations from a re-analysis of the deposited data

How the results depend on the processing

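No paired analysis was possible because each group had 1 array. Subtracting the median difference shifted every member by 0.014. Medians over probe sets can differ from means only in the 11 members with 3 or more probe sets, which moved by at most 0.23. Leaving out probe sets with the suffixes _x_at, _s_at and _a_at, which can match more than 1 transcript, changed 10 members. The annotation still gives each of these probe sets to 1 gene. FAS moved to 0.73, and TNFRSF10C crossed 0 to -0.018, against 0.17 with all probe sets. TNFRSF10B moved to -0.63 on 1 probe set, past 1.5-fold lower, against -0.34 with all probe sets. KDM4A lay at -1.46 on the probe set left under this setting. Without the suffixed probe sets 24 members remained, of which 1 (TIGAR) was at least 2-fold higher. CDKN1A, TP53I3 and TRIM22 have no other probe set, and FAS lay at 0.73. Among the 18 members with 2 or more probe sets the count was likewise 1 (FAS). The share of all genes past 2-fold under these probe set settings was not computed. With all probe sets, the 1.5-fold rule gave 10 higher members, against 4.3% of all genes. The 3-fold rule gave 2, against 0.254% of all genes.

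The mean in place of the median was 0.45 for all p53 targets, 0.42 for arrest genes, 0.68 for metabolic genes and 0.40 for death receptors. Without the suffixed probe sets the medians were 1.22 for metabolic genes and 0.27 for the secreted and antiviral pair, each resting on 1 gene. With genes of 2 or more probe sets they were 0.018 for repair genes, -0.43 for metabolic genes and 0.20 for the secreted and antiviral pair, again 1 gene each. For the cell cycle genes the median was -0.91 over 10 genes without the suffixed probe sets. Over the 8 genes with 2 or more probe sets it was -0.94, with 4 at least 2-fold lower. The share of all genes with 2 or more probe sets that were 2-fold lower was not computed. The fewer genes follow from how these settings are built; no level or detection call could be used as a filter on dim probe sets, since centring removed the signal.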

Other observations

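Outside the comparisons above, 10 windows in the RefSeq promoter table held a pair of p53 half-sites at most 13 bases apart. Beside DDB2, the genes among them that were measured were MCC, at 0.56, DYNC2H1, at 0.24, and EIF2AK3-AS1, at -0.26 (log2 difference, shKDM4A minus control); they were named after their values were seen. The probe sets assigned to TNFRSF10C together with LOC254896 entered no gene value and read -0.23 and 0.060.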
